A study of Mus musculus with 11 samples.

Results

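Haematopoietic stem cells (HSCs) sorted from newborn mouse liver without a scatter gate are described here gene by gene. They make up 4 of the 11 libraries of the series, chosen by their titles, WT HSC 1 to WT HSC 4; the other 7 came from HSCs with a high (4) or low (3) forward scatter area. All came from livers of wild-type C57BL/6 mice on postnatal day 0, with no treatment named. The sort took lineage-negative cells that carried Sca1, cKit and CD150 and lacked CD48, 100 to 200 cells per library, and cDNA was made by Smart-seq2, a full-length protocol for very small inputs. The labels do not say whether the 4 libraries came from separate animals, so technical spread and differences between animals cannot be told apart. They form a single group without a counterpart in the same unit, so no test was made. In such bulk libraries fewer cells of a type and less RNA per cell cannot be told apart.

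HSCs renew themselves and give rise to all blood lineages. Before birth they expand in the liver, which is the main blood-forming organ of the fetus, and around birth they move to the bone marrow. Their identity is held by a network of transcription factors of the Gata, Runx, Ets, Tal, Lmo and homeobox families, and their survival and division depend on signals through cytokine receptors such as Kit, for stem cell factor.

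The libraries held between 21307178 and 30889443 reads. Rn45s, the 45S precursor of ribosomal RNA, took 3.06% of reads in WT HSC 3, 4.32% in WT HSC 2, 5.26% in WT HSC 1 and 15.2% in WT HSC 4, with 95% Wilson intervals of at most 0.0129 percentage points to either side. Levels are therefore given as CPM: the reads left without Rn45s, 20341279 to 29189583 per library, were scaled to a sum of 1000000 in each. A gene counted as detected at 1 CPM; 3 reads, the most that a count of 0 allows, corresponded to 0.103 to 0.147 CPM. These limits cover counting error only, since PCR copies of a cDNA are not independent molecules. WT HSC 4 stood apart from the other libraries: it had 10221 detected genes against 11660 to 11779, and its Spearman correlation with each of the others over 12026 genes lay between 0.850 and 0.859, against 0.922 to 0.944 among WT HSC 1, 2 and 3. Xist, the RNA of the inactive X chromosome, was at 479 CPM in WT HSC 2 and at 1.03, 2.77 and 0.474 CPM in WT HSC 1, 3 and 4. The Y-linked Ddx3y set WT HSC 2 apart in the opposite direction, with 0.492 CPM there and 86.3, 41.7 and 61.7 CPM in WT HSC 1, 3 and 4. The labels give no sex, but by these genes WT HSC 2 did not come from the same animal as the other libraries.

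Of 23392 genes used, 9574 (40.9%) were detected in all 4 libraries and 8857 had no read in any. The 40.9% is the background for the share of each gene list detected in all 4 libraries, given below. Genes with a mean of at least 100 CPM, 2418 in number, took 70.9% of the reads, and 95 genes reached 1000 CPM. WT HSC 4 lacked, below 1 CPM, 1118 genes that the other 3 libraries all detected, while the same count was 102 for WT HSC 1, 121 for WT HSC 2 and 89 for WT HSC 3. Without WT HSC 4, 10692 genes were detected in every library. Olfactory receptor genes, which blood cells are not known to use, gave a reference for silence: 97.3% of 1122 had no read, against 37.9% of all genes.

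Among the 20 genes that took most reads were ribosomal proteins and translation factors, beside Actb, the chaperone Hsp90ab1, B2m and the noncoding RNA Malat1. Eef1a1, the factor that brings aminoacyl-tRNA to the ribosome, was at 9497, 11595, 11779 and 8012 CPM in WT HSC 1 to 4. Actb, cytoplasmic actin, followed with 7602, 6955, 6661 and 6526 CPM, and its coefficient of variation (CV, SD over mean) of 6.90% was low for its level. Rplp0, Rpl4, Hsp90ab1, B2m and Rpl13 came next, at means of 6385 ± 1273, 4928 ± 547, 4113 ± 683, 3720 ± 218 and 3558 ± 364 CPM (SD, n = 4). Genes for cytosolic ribosomal proteins took 8.47%, 11.3%, 10.5% and 8.03% of reads, and 83 of the 87 were detected in all 4 libraries. Translation factors took 2.92% ± 0.316, the respiratory chain and ATP synthase 2.17% ± 0.193, and the proteasome 1.32% ± 0.106 (SD, n = 4). Within this top group the libraries did not always run together. The nuclear long noncoding RNA Malat1 was at 6143 CPM in WT HSC 1 against 2202 to 2406 in the others, and Eif5a, a translation elongation factor, at 4405 against 1969 to 2288. Ftl1, ferritin light chain, was at 4642 CPM in WT HSC 1 and 1795 to 2335 in the others, but 73.4% of its 50-base stretches also occur in other transcripts, so its level is uncertain, as is that of Rps2 (73.7%).

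Per kilobase of transcript (RPKM, CPM divided by the transcript length in kilobases), which allows genes to be compared, Rpl32 had the highest mean with 5863 ± 869, before Eef1a1 with 5697 ± 1003, Rplp0 with 4702 ± 938, Rpl13 with 4562 ± 466 and B2m, the light chain of class I molecules, with 4326 ± 254 RPKM (SD, n = 4). From Rpl32 to Rpl13 no gene was above the next in all 4 libraries. Ifitm1, an interferon-inducible membrane protein, stood ninth, with 2961, 3694, 3487 and 2412 RPKM in WT HSC 1 to 4. H2-K1, a class I heavy chain, was at 2573 CPM in WT HSC 1 and 1921 to 2007 CPM in the others. Of the 20 genes listed for class I and II presentation 13 (65.0%) were detected throughout, against 40.9% of all genes. The class II regulator Ciita had no read.

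The 6 HSC markers were detected in every library, with the spread shown in the plot of marker levels. Sca1, cKit and CD150, the products of Ly6a, Kit and Slamf1, were used in the sort, whereas Procr, Hlf and Mecom were not. Kit (chr5:75574987-75656722, GRCm38), the stem cell factor receptor, was at 267, 212, 198 and 635 CPM in WT HSC 1 to 4. Slamf1 (chr1:171767131-171801184), a signalling lymphocyte activation molecule, was at 66.9, 66.5, 72.3 and 128 CPM. For both, WT HSC 1, 2 and 3 lay close together and WT HSC 4 lay well above them. Ly6a (chr15:74994877-74998031), a glycosyl-phosphatidylinositol-anchored surface protein, was at 83.3, 147, 177 and 148 CPM, with WT HSC 1 lowest; 10.04% of its 50-base stretches are shared, mainly with Ly6c1.

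**Figure D1:**
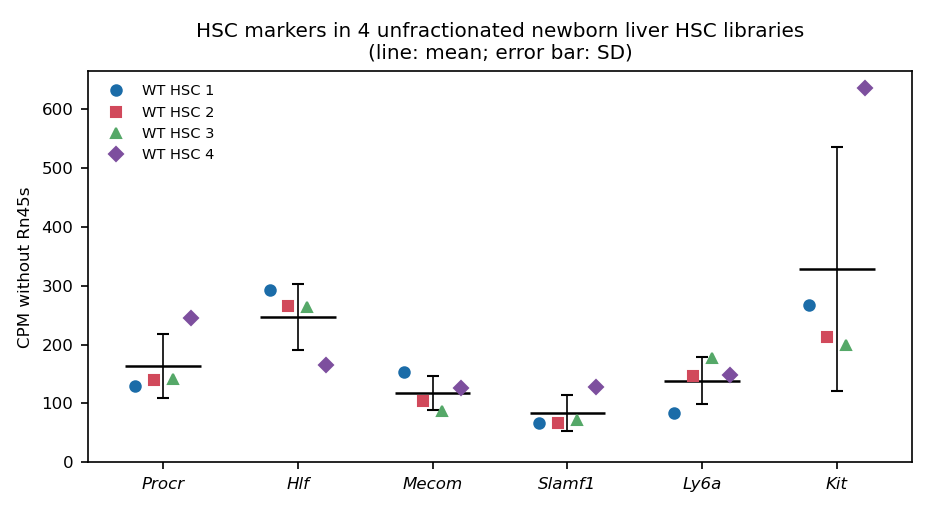
Levels of the 6 HSC markers in CPM without Rn45s (linear axis from 0), with a point for each of the 4 WT HSC libraries, a line at the mean and an SD bar. WT HSC 4 lies highest for Procr (245 CPM), Slamf1 (128 CPM) and Kit (635 CPM) and lowest for Hlf (165 CPM).

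Procr (chr2:155751125-155755478), the endothelial protein C receptor, was at 130, 141, 141 and 245 CPM in WT HSC 1 to 4, and WT HSC 4 again lay highest. Hlf (chr11:90336535-90390917), a PAR-type leucine zipper factor of stem cells, was at 292, 266, 264 and 165 CPM and thus ran the other way. Mecom (chr3:29951296-30509759), which encodes the zinc finger factor Evi1, was at 153, 104, 86.4 and 126 CPM, with WT HSC 4 inside the range of the others. Leaving out WT HSC 4 moved the mean of Kit from 328 to 226 CPM, the largest such move among the 6. By mean level per length the order was Ly6a (145 ± 41.4 RPKM), Procr (103 ± 34.0), Kit (62.7 ± 39.5), Hlf (43.7 ± 9.94), Slamf1 (31.0 ± 11.1) and Mecom (26.8 ± 6.62; SD, n = 4). Ly6a was above Procr, and Procr above Kit, in all 4 libraries, but the neighbours from Kit to Mecom did not differ in all 4. Hlf was above Kit in WT HSC 1, 2 and 3, while in WT HSC 4 Kit was at 121 and Hlf at 29.2 RPKM.

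Set among 696 transcription factors by RPKM, Hlf ranked 41st, between Nfkb1 (46.3 ± 12.6 RPKM) and E2f6 (43.7 ± 17.2), and Mecom ranked 72nd, between Junb (27.2 ± 27.2) and Stat6 (26.7 ± 21.4). Neither differed from those neighbours in all 4 libraries. Among 214 receptors including the marker itself, Ly6a ranked 4th, below Cd27 in all 4 libraries, Procr 6th, beside Tnfrsf18 (105 ± 23.8 RPKM), and Slamf1 14th, beside Flt3 (30.8 ± 11.9; SD, n = 4).

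Of the markers that the sort selected against, Cd3e and Cd8a had no read in any library. Cd48, an adhesion protein absent from the sorted phenotype, was nevertheless at 11.6, 30.3 and 15.2 CPM in WT HSC 1, 2 and 3 and at 0.237 CPM in WT HSC 4. Cd4 was at 4.18, 1.03, 4.56 and 18.2 CPM, so that WT HSC 4 had most of it. Cd5 was at 0.685, 5.31, 1.75 and 0 CPM. Itgam, for CD11b, was at 2.43, 8.65, 1.94 and 0.0395 CPM, but 72.4% of its stretches are shared with another annotated gene. Ptprc, the pan-blood antigen CD45, was at 269, 200, 234 and 366 CPM. Of 36 surface genes of HSCs and progenitors 31 (86.1%) were detected in all 4 libraries, against 40.9% of all genes. They were led by the adhesion receptor Gpr56 at 1332, 965, 1121 and 2115 CPM. Cd34, a sialomucin of progenitors and endothelium, was at 443, 445, 451 and 680 CPM, with WT HSC 4 above 3 nearly equal libraries.

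Of the 696 transcription factor genes 300 (43.1%) were detected in all 4 libraries, close to the 40.9% of all genes. The families differed: all 7 Stat genes, all 4 of the Runx group and 8 of 9 Irf genes were detected throughout, against 18 of 108 non-Hox homeobox genes, 9 of 39 Hox genes and 2 of 24 Pou and Pax genes. Within the Hox family Hoxa9, Hoxa10, Hoxa7 and Hoxb2 were highest per length, and the family's summed level was 236 ± 10.9 CPM (SD, n = 4).

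The factors with the highest levels per length were the chromatin protein Hmgb1 and the haematopoietic adaptor Lmo2. Hmgb1 was at 924, 607, 562 and 404 RPKM in WT HSC 1 to 4 and Lmo2, which bridges Tal1 and Gata factors, at 777, 600, 477 and 617 RPKM. These neighbours did not differ in all 4 libraries, whereas Lmo2 was above the cold-shock protein Ybx1 (468 ± 79.5 RPKM) in each. Trp53, the p53 tumour suppressor, ranked 4th with 331, 325, 356 and 354 RPKM. Its CV of 4.63% was the lowest among the 20 factors with the highest levels. Nfe2, a leucine zipper factor of megakaryocytes and erythroid cells, was at 363, 300, 241 and 242 RPKM, and lay above Hhex, a homeobox factor, in all 4 libraries. Hhex was at 142, 150, 165 and 162 RPKM.

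Myc, a growth regulator, was at 89.2, 117, 97.1 and 254 RPKM, with WT HSC 4 far above the rest, while Mycn was at 182, 77.0, 78.1 and 117 RPKM, with WT HSC 1 highest. Sfpi1, which encodes the Ets factor PU.1, was at 172, 108, 88.4 and 114 RPKM. From Myc (139 ± 77.4 RPKM) (SD, n = 4), the eighth factor, to Meis1, the 20th, no gene was above its next neighbour in all 4 libraries. The order of neighbours is thus not resolved. Genes further apart could differ: Meis1, at 98.5, 70.4, 78.0 and 67.4 RPKM, was below Sfpi1 in every library. Of 54 factors listed for HSC function 47 (87.0%) were detected throughout, against 40.9% of all genes. Gata2, a zinc finger factor of HSC maintenance, was at 74.3, 35.6, 37.4 and 96.7 RPKM, and Bcl11a, a repressor of fetal globins, at 47.6, 52.2, 53.5 and 49.4 RPKM. Sox17, a factor known from fetal HSCs, had no read.

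**Figure D2:**
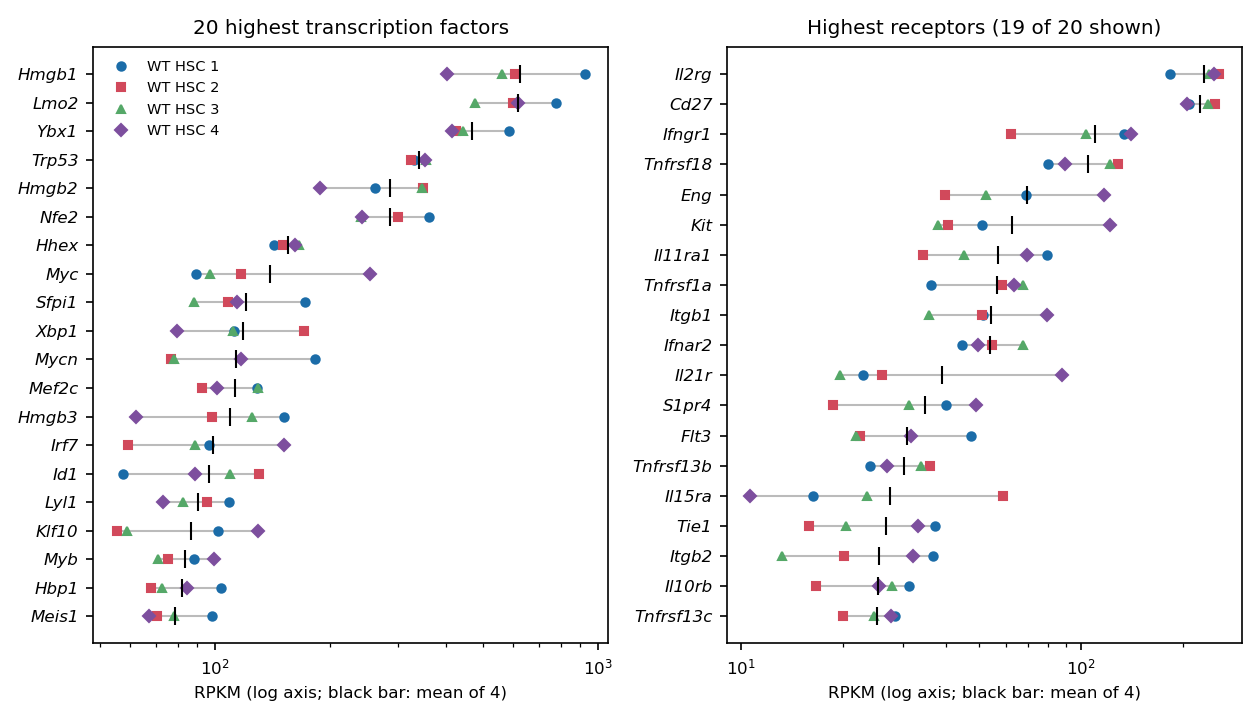
The 20 transcription factors (left) and 20 receptors (right) with the highest mean RPKM (log axis), 19 of the latter shown, with a point for each of the 4 WT HSC libraries and a black bar at the mean. Il2rg and Cd27 stand clear of Ifngr1 in the right panel, while most neighbours lower in either order overlap.

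Of 213 receptor genes 87 (40.8%) were detected in all 4 libraries, close to the 40.9% of all genes. Among the highest per length was Il2rg, the common gamma chain, at 182, 254, 238 and 246 RPKM in WT HSC 1 to 4; 42.0% of its stretches are shared, so its level is uncertain. Cd27, a costimulatory receptor of the tumour necrosis factor family, was at 208, 247, 236 and 205 RPKM, and lay above Ifngr1, an interferon gamma receptor chain (134, 62.0, 103 and 140 RPKM), in every library. Eng, an accessory receptor for TGF-beta, was at 68.7, 39.8, 52.4 and 117 RPKM, and Kit stood seventh. From Eng to the 20th receptor, Tnfrsf13c (25.1 ± 3.78 RPKM, SD, n = 4), no receptor was above its next neighbour in all 4 libraries.

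Receptor classes differed in how many members were detected throughout. Cytokine receptors had 28 of 36, while growth factor receptors had 9 of 35, chemokine and lipid receptors 15 of 45, and Toll-like receptors with their co-receptors 4 of 14. Il7r, Lifr, Osmr and Lepr had no read. Flt3, a receptor of multipotent progenitors, was at 47.3, 22.4, 21.8 and 31.7 RPKM. Il21r, which pairs with the common gamma chain, was at 22.8, 26.0, 19.6 and 87.9 RPKM, and Il15ra at 16.3, 58.9, 23.5 and 10.7 RPKM, so that different libraries stood out. Among receptors of developmental signals, Fzd9, for Wnt ligands, was at 27.6, 5.01, 1.03 and 69.2 CPM, whereas Tgfbr3, a TGF-beta co-receptor, was at 37.0, 45.5, 44.9 and 37.3 CPM.

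Of 52 genes for ligands 19 (36.5%) were detected in all 4 libraries, against 40.9% of all genes. Mif, a cytokine made by many cells, was at 385, 765, 759 and 707 CPM. Angpt1, the ligand of Tek, was at 240, 241, 214 and 504 CPM, and its receptor Tek at 40.8, 33.7, 38.0 and 86.5 CPM. Both genes were highest in WT HSC 4. Kitl and Cxcl12, the ligands for Kit and Cxcr4 that supporting cells make, had no read in any library.

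Genes of mature blood cells fell into a few that were abundant and many that were near 0. Of 20 erythroid genes listed, 19 were measured and 10 of these (52.6%) were detected throughout, against 40.9% of all genes. Car2, carbonic anhydrase, was at 2774, 1650.1, 2032 and 1409.8 CPM, and Epor, the erythropoietin receptor, at 38.3, 28.2, 24.7 and 38.5 CPM. Slc4a1, a membrane protein of red cells, had no read, and the globins summed to 3.15, 3.54, 3.46 and 6.55 CPM. Alpha globin genes were listed at 0, but Hba-a1 and Hba-a2 share 67.5% and 86.9% of their stretches. The beta globin gene Beta-s shares 65.8%, mainly with Hbb-bt, which was not among the gene symbols. The counts of these genes and the globin sum are thus uncertain. Gata1, the erythroid and megakaryocyte factor, was at 14.3, 8.41, 22.5 and 18.1 CPM.

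Of 29 megakaryocyte and platelet genes 18 (62.1%) were detected in all 4 libraries, against 40.9% of all genes. Vwf, the von Willebrand factor, was at 55.2, 52.0, 86.1 and 52.0 CPM and Gp9, a platelet glycoprotein, at 113, 156, 138 and 113 CPM. Pf4, platelet factor 4, varied more widely, with 11.5, 76.8, 185 and 14.4 CPM. F2r, a thrombin receptor, was at 64.5, 56.3, 64.0 and 20.3 CPM. The defining megakaryocyte markers Pf4, Gp9, Gp1bb, Itga2b and Ppbp summed to 177 to 370 CPM. The level of Gp1bb (8.94, 7.03, 21.8 and 9.28 CPM) is uncertain, since 92.8% of its stretches are shared with other transcripts.

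Among 23 measured genes of neutrophils and their granules 4 (17.4%) were detected throughout, against 40.9% of all genes. Prtn3, proteinase 3, was steady at 364, 328, 323 and 331 CPM, and Lyz2, lysozyme, was at 508, 584, 632 and 699 CPM. Mpo, myeloperoxidase, was at only 8.87, 16.8, 16.2 and 0.118 CPM. Elane and Ctsg, which lie in granules with Prtn3 in neutrophil precursors, had no read. Cebpa, a factor of granulocyte precursors, stayed below 1 CPM in every library.

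Lymphoid genes gave the same uneven picture. Cd79b, a chain of the B cell receptor complex, was at 105, 170, 170 and 128 CPM while its partner Cd79a was at 0.788, 1.13, 0 and 0 CPM, and Pax5, Ebf1, Igll1 and Rag1 had no read. Rag2, of the recombinase, was at 16.1 CPM in WT HSC 4 and at or below 0.0492 CPM in the others. Of 22 T and NK cell genes 4 (18.2%) were detected throughout, against 40.9% of all genes. Among them was the kinase Lck at 23.8, 32.3, 20.7 and 18.4 CPM, and Cd3e, Cd3g and Bcl11b had no read. Mast cell and basophil genes Ms4a2, Fcer1a and Mcpt8 had no read either.

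Most markers of hepatocytes and stromal cells were at or near 0, as the map of cell type markers shows. Which cells the remaining reads came from was not tested. Of 8 hepatocyte markers 1 was detected throughout, Trf, transferrin, whose stretches are 79.8% shared; Alb, serum albumin, was at 0.0685, 0, 0.532 and 2.49 CPM. Afp, alpha-fetoprotein, was at 8.46, 22.8, 4.94 and 0.513 CPM. Hnf4a, a hepatocyte factor, was at 28.8, 15.3, 10.6 and 22.5 CPM. Apoe, an apolipoprotein that blood cells also make, was at 910, 625, 422 and 712 CPM.

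**Figure D3:**
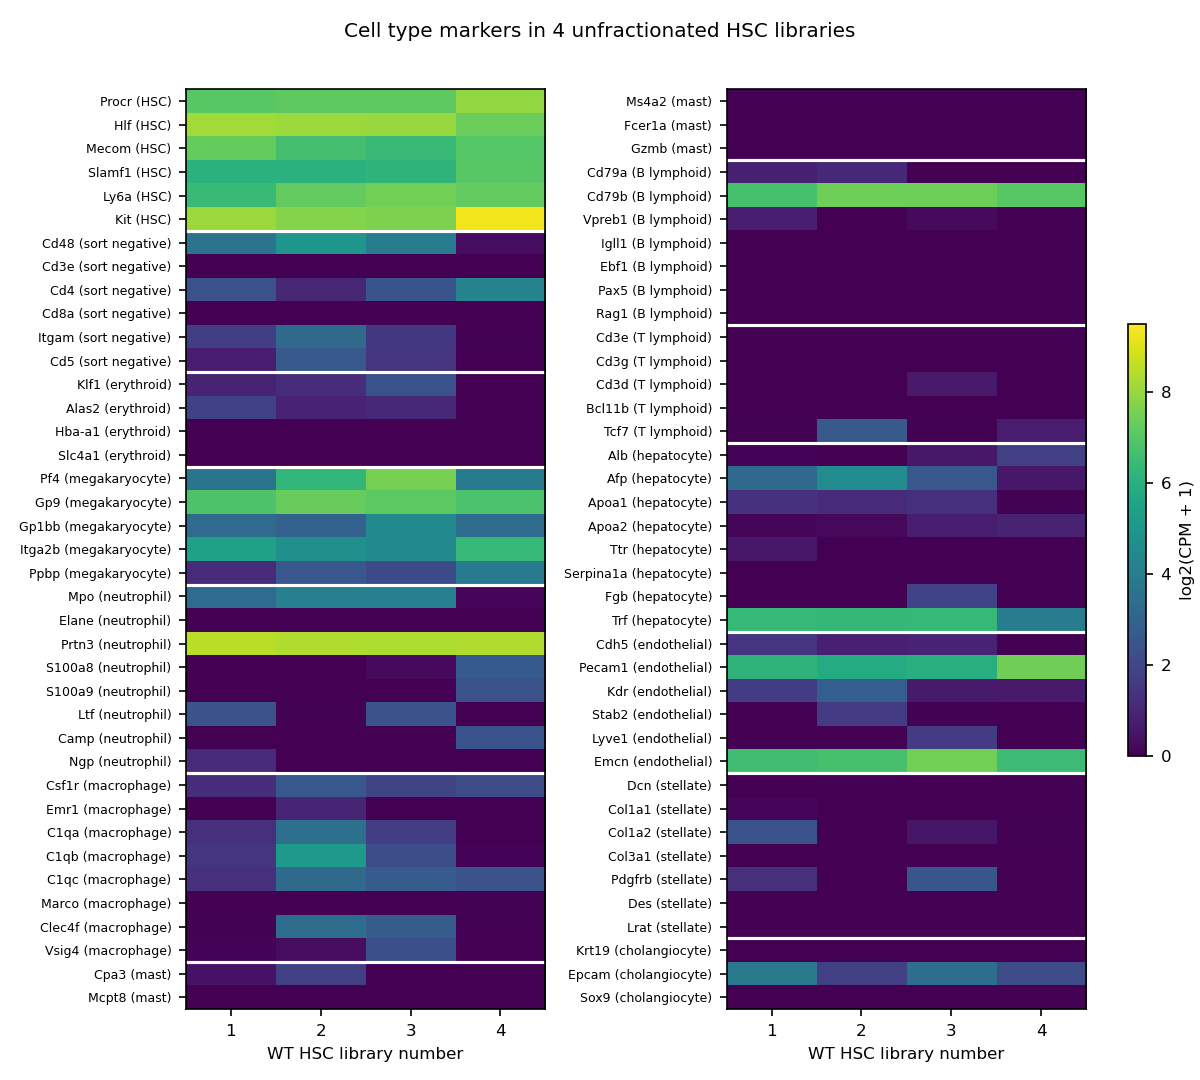
Levels of the cell type markers as log2(CPM + 1) (colour) in the 4 WT HSC libraries (columns), grouped by cell type between white lines. HSC markers are bright in all columns. Most markers of mast cells and basophils, lymphocytes, hepatocytes and stromal cells are at or near 0. Among the markers of other cell types, Prtn3, Cd79b, Trf, Pecam1, Emcn and Gp9 are bright exceptions.

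Macrophage markers differed between libraries: the sum of the 8 defining genes was 6.03, 68.0, 24.4 and 8.21 CPM in WT HSC 1 to 4. C1qb, a complement subunit of tissue macrophages, was at 33.1 CPM in WT HSC 2 and at or below 3.84 CPM in the others. Cd5l, a secreted macrophage protein, was at 1.95, 24.6, 0.0380 and 0 CPM, and Clec4f, a lectin of Kupffer cells, at 0.0343, 9.29, 5.70 and 0.0395 CPM. C1qb, Cd5l and Clec4f were thus highest in WT HSC 2, whereas Vsig4, a complement receptor of macrophages, was highest in WT HSC 3, at 0.0685, 0.246, 3.95 and 0 CPM. Their part in other levels of these libraries was not tested. Marco stayed below 1 CPM in every library.

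Several genes of endothelium are also known from HSCs. Of these, Egfl7, a secreted factor, and Esam, an adhesion molecule, were at 603, 261, 243 and 540 CPM and at 335, 403, 306 and 426 CPM. Cdh5, the endothelial cadherin, was at 1.68, 0.787, 0.950 and 0 CPM and Kdr, a VEGF receptor, at 2.19, 6.19, 0.608 and 0.592 CPM. Cldn5, a tight junction protein, was at 15.6, 14.5, 9.04 and 80.8 CPM. Of 7 stellate and stromal markers none was detected throughout and Dcn, Col3a1, Des and Lrat had no read, while the intermediate filament gene Vim, which blood cells use, was at 386, 538, 446 and 198 CPM. Krt18, a keratin, was at 153, 101, 89.9 and 89.3 CPM although its usual partner Krt8 was at 3.22, 0.0492, 2.93 and 0.513 CPM.

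Genes of the fetal programme were present. Igf2bp2 and Igf2bp3, RNA-binding proteins of fetal cells, were at 127, 89.9, 86.5 and 189 CPM and at 105, 82.4, 64.4 and 29.2 CPM. Hmga2, a chromatin protein of fetal HSCs, was at 76.6, 134, 93.3 and 35.7 CPM. Lin28b, the repressor of let-7 maturation in fetal HSCs, was at 12.9, 6.24, 9.08 and 11.6 CPM, and its relative Lin28a had no read. H19, an imprinted RNA, was at 93.8, 173, 114 and 58.4 CPM.

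Of 49 genes listed for G2 and mitosis 44 (89.8%) were detected throughout, against 40.9% of all genes, and all had a mean of at least 10 CPM. Their summed level was 7505, 6895, 8375 and 2577 CPM in WT HSC 1 to 4, and 47 of the 49, all but Ect2 and Kif11, were lowest in WT HSC 4, as were 31.5% of all 9128 genes with a mean of at least 10 CPM. Mki67, the Ki-67 antigen of dividing cells, was at 305, 181, 276 and 12.7 CPM, and Ccnb2, a mitotic cyclin, at 477, 326, 319 and 147 CPM. The 46 S phase genes summed to 5758, 6297, 6707 and 6105 CPM, and 20 of them were lowest and 9 highest in WT HSC 4. Mcm6, a subunit of the replicative helicase, was at 508, 483, 538 and 943 CPM. Without it, a setting chosen after these values were seen, the S phase sums were 5250, 5814, 6169 and 5162 CPM. WT HSC 4 was then the lowest, close to WT HSC 1. Pcna, the replication clamp, was at 279, 440, 438 and 312 CPM. The G2 and mitosis sum averaged 6338 CPM, and 7592 CPM without WT HSC 4.

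**Figure D4:**
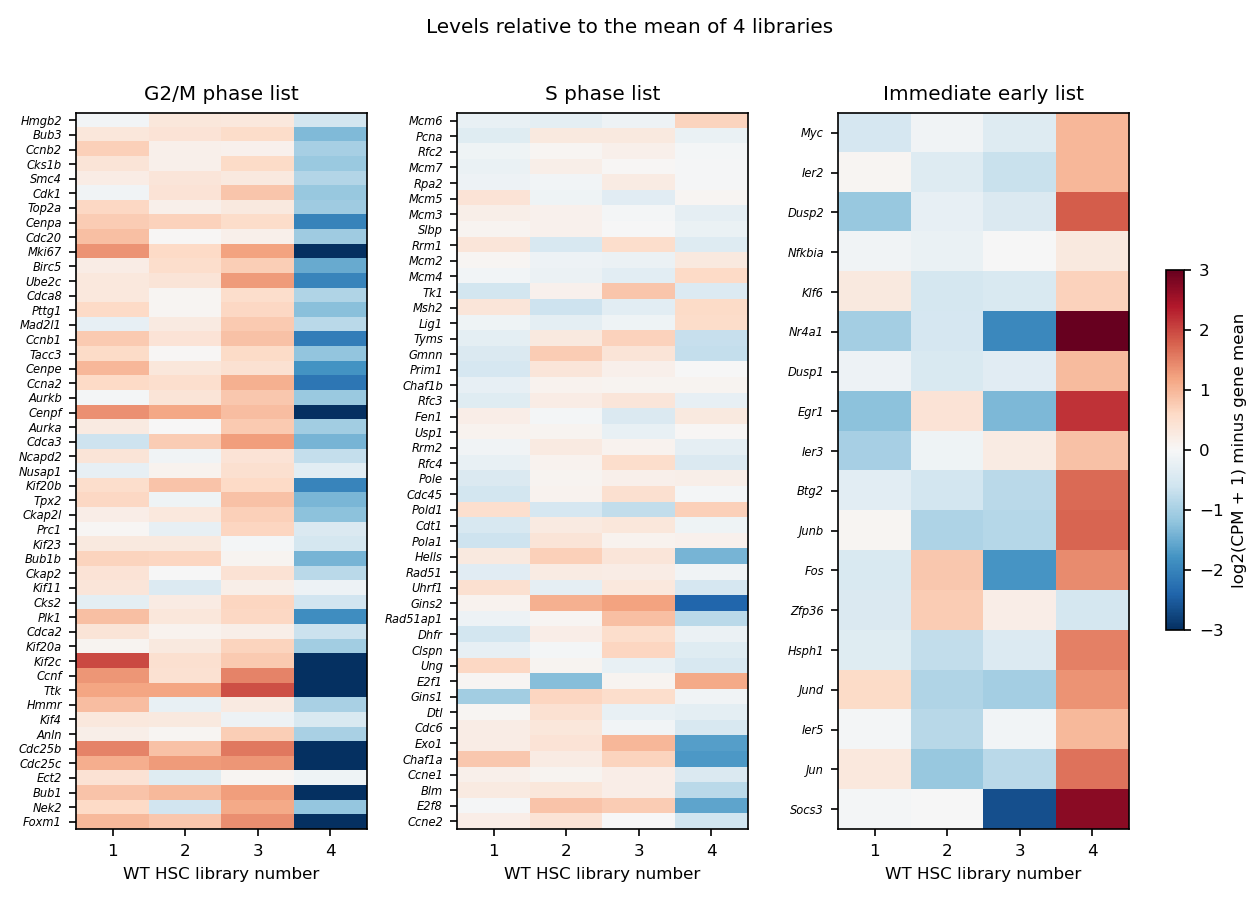
Levels relative to the mean of the 4 WT HSC libraries, as log2(CPM + 1) minus the gene's mean (colour), for genes with a mean of at least 10 CPM. In the left panel 47 of 49 G2/M genes are lowest in library 4, in the right panel 17 of 18 immediate early genes are highest in library 4, and in the S phase panel 20 of 46 genes are lowest and 9 highest in library 4.

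Immediate early genes are switched on by cells within minutes of a stimulus. Their sum was 1145, 1250.5, 1042 and 3551 CPM, and 17 of the 18 with a mean of at least 10 CPM, all but Zfp36, were highest in WT HSC 4, against 36.2% of all 9128 genes of that level. Nr4a1, an orphan nuclear receptor, was at 19.1, 27.8, 9.73 and 444 CPM, and Egr1, a zinc finger factor, at 24.7, 78.6, 22.8 and 268 CPM. Dusp2, a phosphatase of MAP kinases, was at 71.7, 133, 117 and 564 CPM. WT HSC 4 was also the library with the most Rn45s and the fewest detected genes, and the part of either in these levels was not tested. The inhibitors of the cell cycle were mixed: Cdkn1c, p57, was at 134, 77.9, 62.2 and 136 CPM, Cdkn1b, p27, at 12.7, 2.80, 4.37 and 3.55 CPM, and Cdkn1a, p21, at 12.8, 6.59, 3.23 and 84.7 CPM.

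The promoters of the listed G2 and mitosis genes often held elements already known from such genes. Their presence follows from the choice of genes and elements and says nothing about the levels in these libraries. RefSeq windows of 300 bases around the gene start (GRCm38.p6) were searched on both strands for the CHR element, TTTGAA, and the NF-Y element, CCAAT, which together are known from genes of the late cell cycle. CHR letters were in 33 of 44 windows of 41 listed G2 and mitosis genes (75%), against 15.3% of all 21007 windows and 10.3% of 39 S phase windows. CCAAT was in 36 of the 44 (81.8%), against 38.1% of all and 59.0% of S phase windows. A match is a run of letters and not a measured site. The bases before the start of the 4 most abundant such genes that hold both elements are printed 5′ to 3′ on the gene's strand, with the elements or their reverse complements in capitals, to show where the elements lie: Hmgb2 at chr8:57511663-57511842, Bub3 at chr7:131560190-131560369, Ccnb2 at chr9:70421555-70421734 and Cks1b at chr3:89418292-89418471.
Hmgb2: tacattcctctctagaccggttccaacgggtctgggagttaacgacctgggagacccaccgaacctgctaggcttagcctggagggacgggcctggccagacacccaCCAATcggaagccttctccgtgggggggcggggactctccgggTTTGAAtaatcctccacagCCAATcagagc
Bub3: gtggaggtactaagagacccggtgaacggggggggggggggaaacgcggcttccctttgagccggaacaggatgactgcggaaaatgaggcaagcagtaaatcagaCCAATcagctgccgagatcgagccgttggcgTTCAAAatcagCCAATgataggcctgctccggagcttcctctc
Ccnb2: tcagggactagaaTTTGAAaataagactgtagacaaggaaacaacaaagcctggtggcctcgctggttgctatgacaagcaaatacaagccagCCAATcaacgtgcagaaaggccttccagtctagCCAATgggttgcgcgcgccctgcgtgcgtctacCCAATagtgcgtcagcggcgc
Cks1b: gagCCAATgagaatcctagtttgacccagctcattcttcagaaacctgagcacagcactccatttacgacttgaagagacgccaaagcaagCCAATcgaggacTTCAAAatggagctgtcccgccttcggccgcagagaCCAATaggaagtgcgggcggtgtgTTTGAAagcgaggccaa
Each holds at least 1 CHR element and 2 or more CCAAT elements. Hmgb2, a chromatin protein, was at 686, 919, 912 and 495 CPM in WT HSC 1 to 4, Bub3, of the spindle checkpoint, at 378, 400, 439 and 119 CPM, and Cks1b, a subunit of cyclin-dependent kinases, at 351, 298, 396 and 122 CPM.

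Promoter letters also differed with level across all genes. The ETS element CCGGAAGT was in 9.84% of the windows of genes with at least 100 CPM and in 9.05% at 10 to under 100 CPM. It was in 5.09% at 1 to under 10 CPM and in 0.904% for genes with no read. The median number of CpG dinucleotides per window was 21 in both upper ranges and 4 for genes with no read. TATAAA was in 7.23% at 100 CPM or more, in 6.44% at 10 to under 100 CPM and in 21.2% with no read. Windows of cytosolic ribosomal protein genes held the ETS element in 12 of 75 (16.0%), against 5.29% of all 21007 windows. As examples among the most abundant genes, the bases before the start of Eif5a (chr11:69920631-69920810) and Rps18 (chr17:33955666-33955845) follow, with CCGGAAGT in capitals.
Eif5a: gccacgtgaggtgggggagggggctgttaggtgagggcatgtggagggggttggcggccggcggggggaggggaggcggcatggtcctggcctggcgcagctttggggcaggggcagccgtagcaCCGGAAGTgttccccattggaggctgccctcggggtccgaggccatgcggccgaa
Rps18: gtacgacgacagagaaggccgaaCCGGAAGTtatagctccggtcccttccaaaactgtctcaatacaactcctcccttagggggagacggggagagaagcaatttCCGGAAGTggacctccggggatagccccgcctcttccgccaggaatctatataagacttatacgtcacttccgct
Rps18 holds 2 such elements and Eif5a 1. Eif5a was at 4405, 2288, 2119 and 1969 CPM in WT HSC 1 to 4, and the level of Rps18 is uncertain, since 79.8% of its stretches are shared with other transcripts.

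The spread between libraries was smaller at higher levels, as the plot of spread against level shows. Over 9128 genes with a mean of at least 10 CPM the median CV was 32.7%, and the CV that the counting of reads gives by itself, leaving out differences between cells and in amplification, was 2.79%. It was 43.0% for genes of 10 to 50 CPM, 22.8% for 100 to 500 CPM and 18.5% for 500 CPM or more. One library stood apart from the other 3 beyond Dixon's critical value in 7.56% of these genes. WT HSC 4 was the highest library for 3301 of them and the lowest for 2878, more than any other library in both directions, and leaving it out gave a median CV of 25.4% over the same genes.

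**Figure D5:**
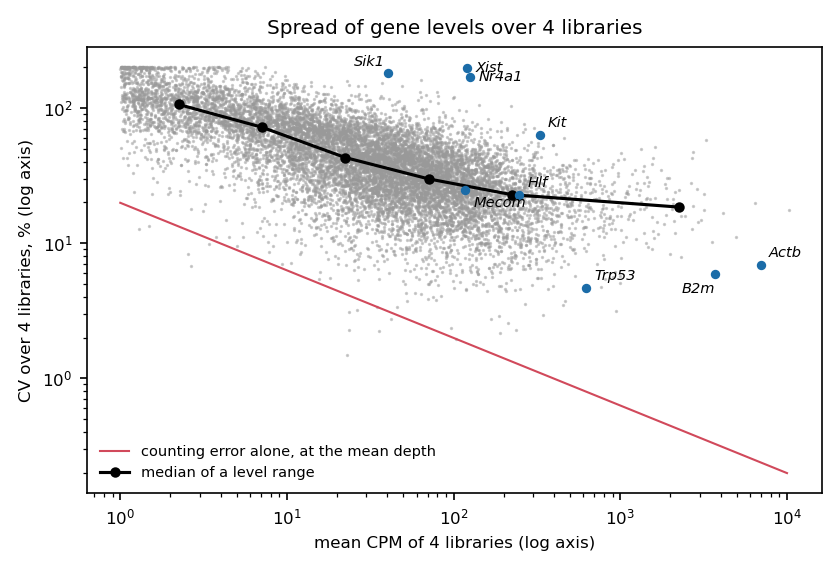
CV over the 4 WT HSC libraries (%, log axis) against mean CPM (log axis) for each gene with a mean of at least 1 CPM, with the median of each level range in black and the CV from counting error alone in red. Actb (6.90%) and Trp53 (4.63%) lie far below the black line, and Xist, Sik1 and Nr4a1 near the top.

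Among genes with a mean of at least 20 CPM the widest spread was that of Xist (CV 198%), followed by Sik1 (183%), Nr4a1 (170%), Per1 (161%) and F10, coagulation factor X (157%). Sik1, a kinase induced by cAMP, was at 5.82, 2.61, 1.90 and 150 CPM, and Per1, a clock gene, at 20.8, 8.36, 7.94 and 217 CPM. Cd69, an early activation antigen, was at 9.90, 24.4, 6.88 and 154 CPM. In 11 of these 12 genes WT HSC 4 was highest, with Xist the exception. Of all 9128 genes with a mean of at least 10 CPM, 36.2% were highest in WT HSC 4. The 12 were chosen for their spread, so the count follows in part from that choice. Without WT HSC 4, Xist and F10 remained among the 12. The genes that then joined included Id3, an inhibitor of helix-loop-helix factors, at 6.13, 9.83, 51.3 and 29.0 CPM.

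The narrowest spread was that of Ino80e, a subunit of a chromatin remodeller, at 23.02, 22.42, 22.95 and 23.21 CPM (CV 1.49%). Atp6v1a, of the proton pump of vesicles, was at 102, 103, 101 and 106 CPM, Ripk3, a kinase of necroptosis, at 195, 187, 188 and 186 CPM, and Wsb1, of a ubiquitin ligase, at 237, 234, 242 and 229 CPM. These were chosen from a large number of genes for agreement over 4 values, and leaving out a library kept 0 to 2 of the 12.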

How the data were processed

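RNA was measured by Smart-seq2 in 4 unfractionated HSC libraries. The deposited files hold a scaled signal for each of 23420 gene symbols, as the authors made it. Of tools, STAR and DESeq2 are listed in the submitters' processing notes, with mm10 as the build and no roles. The counting step, its use of strand and the annotation used are not given in the sources used here. Reads were recovered by dividing each deposited signal by its step, the worth of 1 read. All values (100%) were whole within 0.01. Without a strand setting, reads of overlapping or antisense genes cannot be told apart.

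Rn45s and 27 symbols that had become dates (0.178% to 0.244% of reads) were left out, and reads were expressed as CPM. RPKM used the median GENCODE M21 transcript length of each gene, found for 23025 of 23392 genes, 1294 by an older symbol. Shared sequence was searched in 50-base stretches of the M21 transcripts. Promoter sequences are RefSeq's (GRCm38.p6).

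Genes, lists and motifs were chosen with earlier results of these data known, and the motifs after levels were seen. Named were the genes with most reads, the highest factors and receptors per length, the leading and defining members of each list, and the 12 widest and 12 narrowest spreads among genes with a mean of at least 20 CPM. Predicted genes and pseudogenes were not named, and results of some single genes are not reported here; counts and sums over lists include them. Chosen for naming with their values known were further list members, among them F2r, Fzd9, Il7r, Kitl, Cd5l, Lin28b, Egr1, Cdkn1b and Id3. Neighbours in an order were said to differ where one was higher in all 4 libraries. No comparison between groups was tested, since there is 1 group, and single libraries that stood apart were found by Dixon's ratio. The libraries with a scatter gate are in another unit and were not used here.

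Alternatives were other totals, edgeR TMM factors, other minimums, the longest transcript as length and each library left out. Step recovery and spread were tested on simulated data. Python 3.11.15, numpy 2.4.6, pandas 2.3.3, matplotlib 3.10.9, R 4.3.3 and edgeR 4.0.16 were used.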

Additional observations from a re-analysis of the deposited data

Results flagged for a closer look

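For 38 of 239 values (15.9%) a single library lay so far from the other 3 that its gap exceeded Dixon's critical value for 4 samples; chance gives about 1 in 20, and over all 9128 genes with a mean of at least 10 CPM the share was 7.56%. The genes of widest spread are part of the 239 and were chosen for their spread, so they raise that share. WT HSC 4 was the library in 28 of the 38, high in 26 and low in 2. Over all 9128 genes it was likewise the most frequent, with 363 of the 488 genes high in 1 library and 101 of the 202 low in 1.

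In WT HSC 4 the markers Procr (245 CPM, others 130 to 141), Slamf1 (128, others 66.5 to 72.3) and Kit (635, others 198 to 267) lay high, and with them the sum of the 6 HSC markers (1447 CPM, others 935 to 992). The immediate early sum (3551 CPM, others 1042 to 1250.5) lay high too, with Myc at 528, Dusp2 at 564 and Nr4a1 at 444 CPM. Other genes high in WT HSC 4 by the same measure were Il21r (220 CPM), Sik1 (150), Per1 (217), Plk2 (122), Relb (76.4), Nrarp (93.5), Cdkn1a (84.7), Cd69 (154), Plcg1 (187), Arrdc3 (237), Tek (86.5), Angpt1 (504) and Mcm6 (943). Tlr4 (34.3 CPM), Rag2 (16.1), Pdgfra (14.2) and Krt7 (44.4) were at 6.78 CPM or less in the other libraries, and the globin sum was 6.55 CPM against 3.15 to 3.54. Low in WT HSC 4 were Trf (14.7 CPM, others 79.4 to 82.4) and the number of detected genes (10221).

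In WT HSC 1 Malat1 (6143 CPM), Cnbp (4264), Eif5a (4405), H2-K1 (2573) and the cholangiocyte sum (198, others 128 to 138) lay high, and Mif (385) low. In WT HSC 2 Xist (479 CPM) and C1qb (33.1) lay high. In WT HSC 3 Cebpg (83.9 CPM) and Emcn (179) lay high.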

How the results depend on the processing

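Levels of the 6 markers, the share of ribosomal protein genes, the 20 highest factors and receptors, detection and the median CV kept their values within the spread of libraries (counts within 1.5 times) under all alternatives run. The detected genes numbered 9663 to 10692 and the median CV was 25.2% to 33.7% when a library was left out. Of the 12 genes with the widest spread, 2 were kept when spread was the SD of log2(CPM + 1), and 2 to 11 when a library was left out, 2 of them without WT HSC 4. Of the 12 with the narrowest spread, 0 to 2 were kept when a library was left out. The cause was not tested. Of 932 values of single genes and lists under other settings, 908 moved by less than the SD of the libraries. Of the 24 others, 20 moved with Rn45s in the total and 3 with the longest transcript as length. The remaining 1 was the S phase sum without Mcm6 (5599 CPM on average), a setting chosen after seeing the data. Leaving out a member lowers a sum in any case. No paired analysis was possible because the libraries form 1 group, and the gated libraries with the same numbers are in another unit. Depth limits genes below 0.147 CPM, 3 reads in the shallowest library.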

Other observations

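Some genes of clear level in WT HSC 1, 2 and 3 were near 0 in WT HSC 4. Gfi1b, a repressor needed for erythroid and megakaryocyte development, was at 66.0, 63.3, 113 and 0.237 CPM in WT HSC 1 to 4, while its relative Gfi1 was at 149, 118, 147 and 104 CPM. Cxcr3, a chemokine receptor, was at 27.9, 38.0, 35.1 and 0.0395 CPM, and Igf1, a growth factor, at 38.2, 61.6, 64.2 and 2.96 CPM. In all, 240 genes had at least 10 CPM in each of WT HSC 1, 2 and 3 and less than 1 CPM in WT HSC 4. The same count was 1, 8 and 3 for WT HSC 1, 2 and 3 set against the others. These genes were named after their values were seen.

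Of genes known to respond to interferon, Irf7, an interferon regulatory factor, was at 185, 114, 170 and 290 CPM, and Bst2, tetherin, at 80.8, 128, 130 and 215 CPM, both highest in WT HSC 4. Others were not: Ifitm1, at 2179, 2719, 2567 and 1775 CPM, and Irf1, at 113, 109, 128 and 98.3 CPM, were lowest there. Nkx2-3, a homeobox factor, was at 76.7, 49.2, 43.5 and 262 CPM, and Txnip, an inhibitor of thioredoxin, at 691, 846, 1065 and 954 CPM.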
